A study of Mus musculus with 3 samples.

Results

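The miR-17-92 and miR-106b-25 clusters are runs of miRNA hairpins that are cut from 1 primary transcript each, and the 9 miRNAs described here are the main strands of their hairpins. These are 6 miRNAs of miR-17-92 and 3 of miR-106b-25, chosen by name among the 1079 mouse miRNAs of the array. Matrix vesicles (MVs), which bud from osteoblasts into the unmineralized matrix, were isolated in 3 independent preparations from the ECM of MC3T3-E1 cells, an established mouse osteoblastic line, with 500 units/mL collagenase and ultracentrifugation. From each preparation 100 ng of total RNA was labeled with Cy3 and put on its own mouse miRNA microarray, which gives 3 arrays of 1 group. For all 3 arrays the cells were plated at 3000 cells/cm². They were grown in osteogenic medium, which held ascorbic acid, until osteoid-like nodules appeared. The sample labels state that the medium held β-glycerophosphate, whereas the methods state that MVs came from cultures without it. No genotype or treatment differed between the arrays, and neither the parent cells nor another condition was analysed here.

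Both clusters are known as drivers of cell proliferation. Their transcription is raised by MYC and E2F factors, and their products lower inhibitors of the cell cycle and of cell death. In bone, miR-17-92 is needed for normal skeletal growth, and loss of a copy of the human cluster causes a syndrome with short stature and digit defects. A primary transcript yields its hairpins together, but the amount of each mature miRNA also depends on processing and on stability, and each array feature has its own probes, so signals of different miRNAs can be ordered as signals but do not rank the amounts of RNA.

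The mature sequences were matched by name for 9 of 9 miRNAs and are those of RefSeq (GRCm38.p6). They are shown with the seed, bases 2 to 8, in capitals, because the seed selects the target mRNAs and because the clusters share seeds. The seed AAAGUGC is found in 4 of the miRNAs, which span both clusters:
mmu-miR-17-5p: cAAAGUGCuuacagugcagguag
mmu-miR-20a-5p: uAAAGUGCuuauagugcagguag
mmu-miR-106b-5p: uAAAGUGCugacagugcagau
mmu-miR-93-5p: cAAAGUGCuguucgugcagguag

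A single base in the seed sets miR-18a-5p apart from this group, while the miR-19 pair, the part of miR-17-92 best known for oncogenic activity, has another seed and no counterpart in miR-106b-25:
mmu-miR-18a-5p: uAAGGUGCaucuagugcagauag
mmu-miR-19a-3p: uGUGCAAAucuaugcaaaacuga
mmu-miR-19b-3p: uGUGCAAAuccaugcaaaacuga

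The last hairpin of each cluster gives a miRNA with the seed AUUGCAC:
mmu-miR-92a-3p: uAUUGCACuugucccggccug
mmu-miR-25-3p: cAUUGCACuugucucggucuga

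In GRCm38.p6 the 6 hairpins of miR-17-92 lie at chr14:115043671-115044506 on the plus strand, within 836 bases. The 3 hairpins of miR-106b-25 lie at chr5:138165321-138165818 on the minus strand, within 498 bases, and all 3 are inside Mcm7, a gene for a subunit of the replicative helicase. The annotated span of the long non-coding RNA gene Mir17hg holds 1 of the 6 hairpins of miR-17-92. A paralogous cluster, miR-106a-363, lies at chrX:52741693-52742567 on the minus strand. It carries second gene copies of miR-19b-3p and miR-92a-3p with the same mature sequence, so their features cannot be assigned to 1 cluster. The array tables themselves carry no coordinates.

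Detection followed the call that the scanner software made for each feature. In isolation 1, 0 of the 9 miRNAs were detected, beside 7.97% of all mouse miRNAs (86 of 1079). In isolation 2, 5 of 9 were detected, beside 16.6% of all mouse miRNAs (179 of 1079), and in isolation 3 the same 5 of 9 were detected, beside 15.2% (164 of 1079). Thus 5 of 9 were detected in at least 1 isolation, against 16.7% of the 1079, and each of the 5 followed the pattern of isolations 2 and 3 without isolation 1, which 7.41% of all mouse miRNAs showed. The mouse miRNAs of the array include many that are restricted to other tissues, so these shares were given as a background and not as a test.

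The 5 detected miRNAs were miR-20a-5p, miR-19b-3p and miR-92a-3p of miR-17-92, and miR-106b-5p and miR-25-3p of miR-106b-25. By cluster, 3 of 6 and 2 of 3 were detected in isolation 2, with the same counts in isolation 3. In the gene order of miR-17-92, the miRNAs of positions 1, 2 and 3 (miR-17-5p, miR-18a-5p and miR-19a-3p) were not detected and those of positions 4, 5 and 6 (miR-20a-5p, miR-19b-3p and miR-92a-3p) were. Of the latter, miR-20a-5p alone has no second gene in the reference, so a pattern by position along this transcript was not shown. In miR-106b-25 the miRNAs of the first and the last hairpin were detected and that of the middle one, miR-93-5p, was not.

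**Figure D1:**
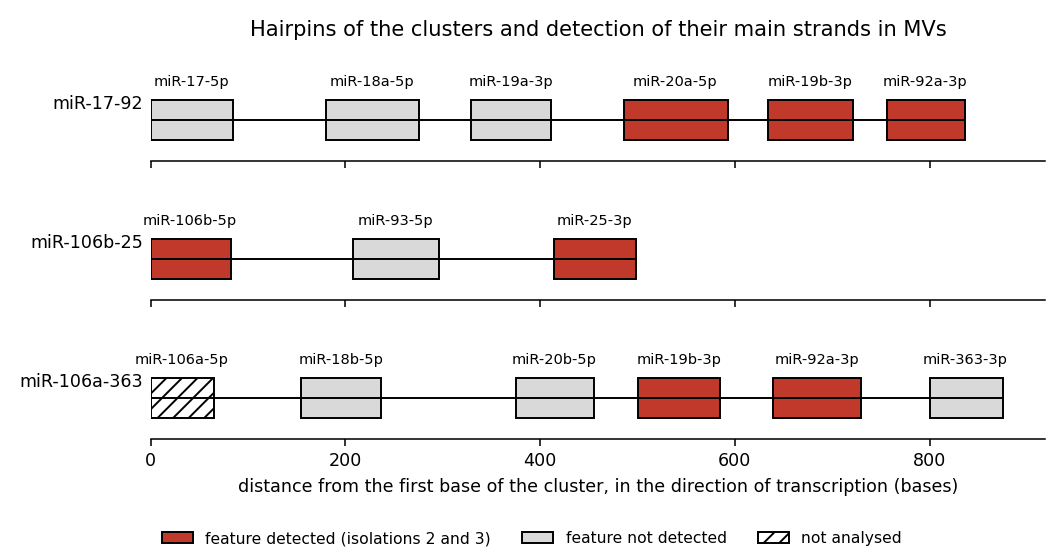
Hairpins of miR-17-92, miR-106b-25 and the paralogous miR-106a-363, drawn to scale as the distance in bases from the first base of each cluster; red boxes mark main strands detected in isolations 2 and 3, grey boxes those not detected, and the hatched box a miRNA not analysed here. The features of miR-19b-3p and miR-92a-3p are drawn in 2 clusters because both have a gene in each, and their signal cannot be assigned to either.

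Detection divided miRNAs of near-identical sequence. From miR-19a-3p to miR-19b-3p the sequence changes at 1 base (U11C, counted from 1 at the 5′ end), and the feature of miR-19b-3p was detected in isolations 2 and 3 whereas that of miR-19a-3p was not detected in any isolation. From miR-17-5p to miR-20a-5p it changes at 2 bases (C1U and C12U), and of these the feature of miR-20a-5p was detected and that of miR-17-5p was not. Signals of such near-identical miRNAs are uncertain where a probe can bind both. By seed, 2 of 4 miRNAs with AAAGUGC, 0 of 1 with AAGGUGC, 1 of 2 with GUGCAAA and 2 of 2 with AUUGCAC were detected. The GC content of the detected miRNAs, 39.1% to 57.1%, overlapped with that of the undetected miRNAs, 34.8% to 52.2%.

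The signals were low. For miR-19b-3p the total gene signal was 20.9 with an error of 3.27 in isolation 2 and 17.8 with an error of 3.01 in isolation 3, on the linear scale of the deposited tables, where the error is that of the scanner software for 1 array. For miR-92a-3p, a regulator of vessel growth, the signal was 20.7 with an error of 3.26 in isolation 2 and 16.8 with an error of 2.96 in isolation 3. These were the brightest of the 9 in both isolations, and they are also the miRNAs with a second gene in miR-106a-363.

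For miR-106b-5p, which shares its seed with miR-17-5p, the signal was 15.5 with an error of 2.96 in isolation 2 and 11.1 with an error of 2.68 in isolation 3. For miR-20a-5p it was 13.1 with an error of 2.84 and 10.96 with an error of 2.66, respectively. For miR-25-3p, which shares its seed with miR-92a-3p, it was 10.14 with an error of 2.72 and 8.99 with an error of 2.59. The order miR-19b-3p, miR-92a-3p, miR-106b-5p, miR-20a-5p and miR-25-3p was thus the same in isolations 2 and 3.

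Most neighbors in this order were not separated by the errors. Of 4 neighboring pairs, 1 was further apart than the combined error of its signals in each isolation, namely miR-92a-3p and miR-106b-5p, by 1.18 combined errors in isolation 2 and 1.43 in isolation 3. Over all 10 pairs, 2 differed by more than 2 combined errors in isolation 2 (miR-19b-3p and miR-92a-3p, each against miR-25-3p) and 1 in isolation 3 (miR-19b-3p against miR-25-3p). As log2 signals over the isolations that detected them (n = 2 arrays), the means were 4.27 ± 0.16 (SD) for miR-19b-3p, 4.22 ± 0.21 for miR-92a-3p, 3.71 ± 0.34 for miR-106b-5p, 3.58 ± 0.18 for miR-20a-5p and 3.25 ± 0.12 for miR-25-3p.

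**Figure D2:**
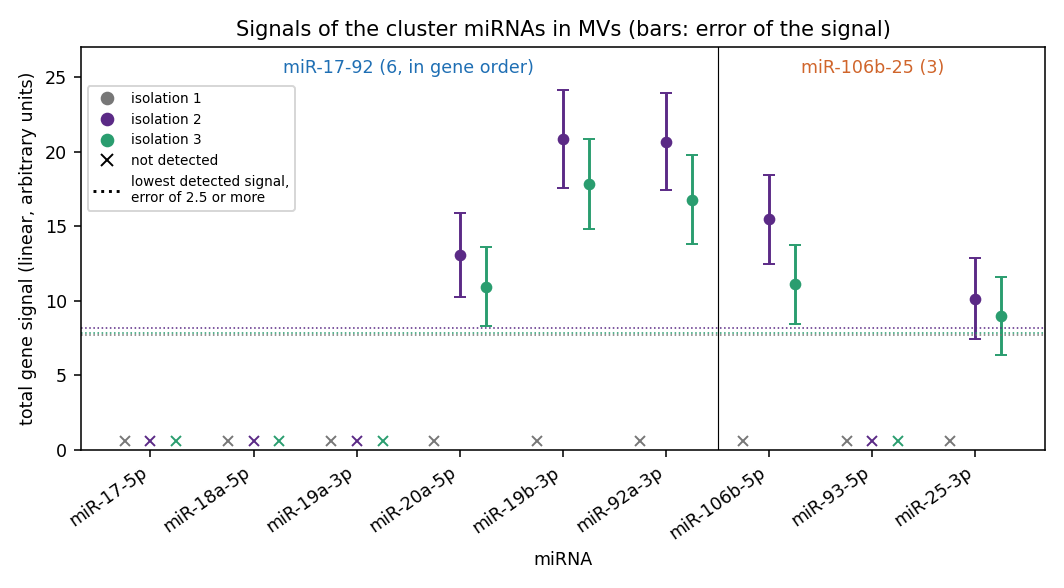
Total gene signal (linear scale) of the 9 miRNAs in isolations 1 (grey), 2 (purple) and 3 (green), with the error of each signal as bars. Crosses near 0 mark features that were not detected and have no measured level, and dotted lines give the lowest detected signal, in each isolation, of a mouse miRNA whose error was at least 2.5; the 5 detected miRNAs lie between 8.99 and 20.9.

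These signals were close to the limit of the arrays. Undetected features all carry a signal of 0.1, which is no level, and no detected mouse miRNA of any array had a signal below 3.02 times its error. Among miRNAs whose error was at least 2.5, as it was for all 5 miRNAs here (2.59 to 3.27), the dimmest detected one had a signal of 7.71 (isolation 1), 8.17 (isolation 2) or 7.82 (isolation 3). Relative to this limit, miR-19b-3p was 2.55-fold brighter in isolation 2 and 2.28-fold in isolation 3, and miR-92a-3p was 2.53-fold and 2.15-fold brighter. The others lay nearer to it, miR-106b-5p at 1.89-fold and 1.42-fold, miR-20a-5p at 1.60-fold and 1.4-fold, and miR-25-3p at 1.24-fold and 1.15-fold. The level of miR-17-5p, miR-18a-5p, miR-19a-3p and miR-93-5p is unknown below the limit of detection. Detection therefore does not show by how much they differed from any of the 5 detected miRNAs. The division between miR-20a-5p and miR-17-5p in particular is one between a signal close to the limit and an unknown level. That between miR-19b-3p and miR-19a-3p likewise has an unknown level on 1 side.

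Within the arrays, the 5 miRNAs lay among the dimmer of the detected signals. In isolation 2, miR-19b-3p was at place 126 and miR-25-3p at place 159 of 179 detected mouse miRNAs, and in isolation 3 miR-19b-3p was at place 111 of 164. The share of detected mouse miRNAs with a lower signal was 29.6% for miR-19b-3p, 28.5% for miR-92a-3p, 20.7% for miR-106b-5p, 16.2% for miR-20a-5p and 11.2% for miR-25-3p in isolation 2. In isolation 3 it was 32.3%, 29.9%, 21.95%, 20.7% and 13.4%, in the same order. The median detected signal was 34.0 in isolation 2 and 30.1 in isolation 3, above each of the 5. Their summed signal was 0.189% of that of all detected mouse miRNAs in isolation 2 and 0.187% in isolation 3. These are shares of signal, not of RNA, and they depend strongly on the brightest feature. That feature, miR-5109, had 12972.6 of the summed 42478.4 in isolation 2 and 14058.5 of 35179.4 in isolation 3.

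**Figure D3:**
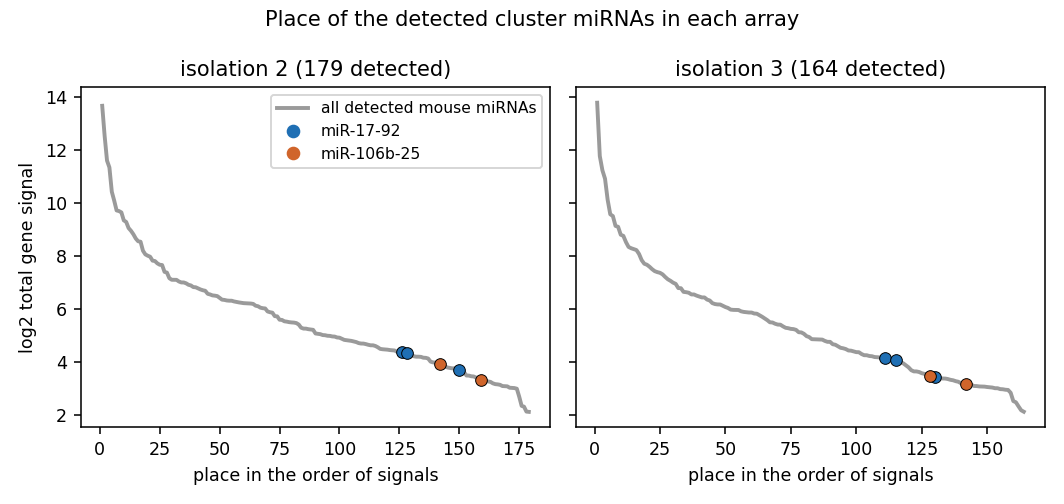
log2 total gene signal against the place in the order of signals for all detected mouse miRNAs (grey line) of isolation 2 (179 miRNAs) and isolation 3 (164 miRNAs), with the detected miRNAs of miR-17-92 in blue and of miR-106b-25 in orange. The 5 miRNAs lie at places 126 to 159 in isolation 2, and in isolation 3 they start at place 111, with 13.4% to 32.3% of the detected miRNAs below them.

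Between the clusters, the mean log2 signal of the detected miRNAs was 4.15 for miR-17-92 (3 miRNAs) and 3.65 for miR-106b-25 (2 miRNAs) in isolation 2, a difference of 0.51. In isolation 3 the means were 3.89 and 3.32, a difference of 0.57 (0.54 ± 0.05, SD, n = 2 arrays). With 2 arrays no test was run, since an exact two-sided sign test over 2 arrays cannot give a p below 0.5. Without miR-19b-3p and miR-92a-3p, the miRNAs with a second gene copy, the mean difference was 0.10, which sets miR-20a-5p against miR-106b-5p and miR-25-3p. The 4 undetected miRNAs have no measured level, and the difference depends on the value they are given. It was 0.046 with these at the lowest detected signal of their array and 0.19 with these at the limit for an error of at least 2.5 given above.

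Within the clusters, the detected miRNAs of miR-17-92 spanned 0.68 log2 units in isolation 2 and 0.70 in isolation 3. Those of miR-106b-25 spanned 0.61 in isolation 2 and 0.30 in isolation 3. For comparison, 3 of 3 miRNAs of the miR-23a-27a-24 cluster, known from osteoblast differentiation, were detected in both isolations, with a mean log2 signal of 6.62 in isolation 2 and 6.19 in isolation 3. The 2 of 2 miRNAs of miR-15b-16, which restrain the cell cycle, had means of 5.06 and 4.84, and the 3 of 3 miRNAs of the mesenchymal miR-199a-214 had means of 7.25 and 6.82. In isolation 1, 2 of 3 miRNAs of miR-199a-214 were detected, with a mean log2 signal of 3.75, and none of miR-23a-27a-24 or miR-15b-16. Detected miRNAs of these clusters spanned 0.49 to 1.48 log2 units in isolation 2 and 0.77 to 1.63 in isolation 3. The difference between clusters was not tested, as each feature has its own probes. The 3 comparison clusters were chosen with earlier results of these data known. Their full detection is therefore no independent yardstick for miR-17-92 and miR-106b-25. On the same 2 arrays, 16.6% and 15.2% of all mouse miRNAs were detected. Second gene copies of the miRNAs in the 3 comparison clusters were not considered here, so their means cannot be credited to single clusters.

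Between isolations each miRNA can be set against itself. All 5 had a lower signal in isolation 3 than in isolation 2, as had 91.5% of the 164 mouse miRNAs detected in both. The log2 difference was -0.17 for miR-25-3p, -0.23 for miR-19b-3p, -0.25 for miR-20a-5p, -0.30 for miR-92a-3p and -0.48 for miR-106b-5p. The median of the 5 was -0.25, beside -0.39 over the 164 miRNAs, whose SD was 0.44. Of the 5, miR-106b-5p alone changed by more than its combined error, by 1.09 times that error, and the others by 0.307 to 0.881 times. The 5 differences lay within the spread of the other miRNAs, which ranged from -1.87 to 0.90.

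In isolation 1 the absence of the 5 miRNAs was shared by most miRNAs of like signal. Of 29 other mouse miRNAs with an isolation 2 signal in the range of the 5 (10.14 to 20.9), 10.3% (3 of 29) were detected in isolation 1, whereas of those with a higher isolation 2 signal 64.8% were detected. The isolation 2 signals of the 5 were between 0.40 (miR-25-3p) and 1.44 (miR-19b-3p) log2 units above 7.71, the limit in isolation 1 given above. Some miRNAs far brighter than the 5 were also undetected in isolation 1, such as miR-24-3p and miR-29a-3p, with isolation 2 signals of 121.2 and 110.4. The 85 mouse miRNAs detected in both arrays were a median of 1.34 log2 units brighter in isolation 2, but unevenly so. The signal of miR-199a-3p rose from 11.8 in isolation 1 to 268.0 in isolation 2, whereas miR-1927 had 132.0 and 125.95. The cause of this unevenness was not tested. These 85 are the part of the 179 miRNAs of isolation 2 that isolation 1 still detected. The median therefore leaves out those lost in isolation 1, may understate the difference between the arrays, and does not give the fall of the 5. Isolation 1 gave no measured level of these 5 miRNAs.

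**Figure D4:**
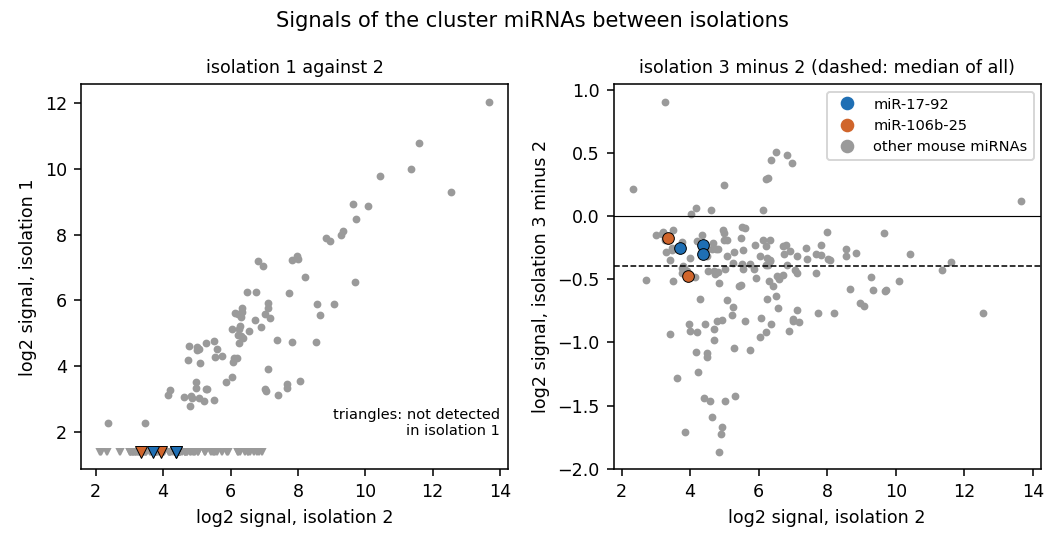
Left, log2 signal in isolation 1 against isolation 2 for the mouse miRNAs detected in isolation 2, with triangles at the base for those not detected in isolation 1; right, log2 signal of isolation 3 minus isolation 2 for the 164 miRNAs detected in both, against the isolation 2 signal, with the median of -0.39 dashed. The detected miRNAs of miR-17-92 (blue) and miR-106b-25 (orange) are all triangles on the left, where the points of miR-19b-3p and miR-92a-3p coincide, and lie between -0.48 and -0.17 on the right.

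The partner strands, which are mostly degraded when the main strand is loaded into Argonaute, were not detected. Of the 11 partner strands of the hairpins that give these miRNAs, including both second gene copies, 0 were detected in any isolation. The share of all 1079 mouse miRNAs detected in at least 1 isolation was 16.7%, and 11 features are too few to be told apart from it. The strands specific to the gene copies were among the 11, namely miR-19b-1-5p and miR-92a-1-5p of miR-17-92 and miR-19b-2-5p and miR-92a-2-5p of miR-106a-363. They thus do not tell which copy gave the signal of miR-19b-3p or miR-92a-3p.

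None of the related miRNAs outside the clusters was detected either. The reference table holds 8 further mouse miRNAs with one of the 4 seeds, of which 6 have a feature under the same name. Beside 16.7% of the 1079 mouse miRNAs, 0 of the 6 were detected in any isolation, a count too small to tell from that share. The 6 are miR-18b-5p, miR-20b-5p and miR-363-3p of miR-106a-363, and miR-32-5p, miR-92b-3p and miR-367-3p from other loci. The 2 others, miR-106a-5p and miR-6383, were not analysed here. In sequence, miR-20b-5p stands as near to miR-20a-5p as miR-17-5p does, at 2 changed bases (U1C and U10C from miR-20a-5p):
mmu-miR-20b-5p: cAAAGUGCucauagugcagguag

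The miRNAs with the most similar signals were sought among the 75 others detected in isolations 2 and 3 and not in isolation 1, by the Euclidean distance of log2 signals over these 2 arrays to the median of the 5 (3.95 and 3.47). The nearest 5 were miR-302c-5p at a distance of 0.05, miR-148a-3p at 0.16, miR-34b-5p at 0.18, miR-103-3p at 0.19 and miR-27b-3p at 0.20. Their signals were between 13.7 and 15.9 in isolation 2 and between 10.5 and 12.6 in isolation 3. With 2 arrays this is a likeness of level only.

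Of 10 miRNAs listed for mesenchymal cells and osteoblasts, 8 were detected in isolations 2 and 3 and 6 in isolation 1. Of these 10, miR-143-3p and miR-145a-5p were undetected throughout. The summed signal of the list was 103.1, 1524 and 1142 in isolations 1, 2 and 3. Of all mouse miRNAs, 7.97%, 16.6% and 15.2% were detected in isolations 1, 2 and 3. The lists were chosen with earlier results of these data known, so they are no independent check of the source of the RNA. The clusters are also abundant in blood cells and embryonic stem cells, and the culture medium contained bovine serum. Of 4 names listed for red blood cells and serum, only 2 had a feature under that name, miR-451a and miR-144-3p. Both were undetected in each isolation, as were 5 of 5 leukocyte, 3 of 3 neuron and 1 of 1 liver miRNAs. Of 5 embryonic stem cell miRNAs 1 was detected, miR-294-3p, with signals of 32.5 in isolation 2 and 11.7 in isolation 3, and of 3 muscle miRNAs 1, miR-206-3p, with 7.71, 37.4 and 21.7 in isolations 1, 2 and 3. Since 16.7% of all mouse miRNAs were detected in at least 1 isolation, lists this short cannot show that a cell type was absent. The part of other cells or of the serum in the signals of the 5 miRNAs was not tested.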

How the data were processed

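MVs were profiled on 3 arrays (SurePrint G3 mouse miRNA, rel.17), 1 for each of 3 independent isolations. Titles number the arrays, although another label calls each of them replicate 1. Whether the cultures were separate is not stated, so the spread between arrays may be in part technical. The authors deposited, for each feature, an intensity (total gene signal, linear scale), its error and a detection call from Agilent Feature Extraction 10.10.1.1, without normalization between arrays. Each table holds 1157 features, of which 1079 are mouse miRNAs. Controls and 57 viral features were left out. No signal was identical between arrays among miRNAs detected in both. Undetected miRNAs (signal 0.1) were left out of means. No test was run, since the arrays form 1 group and their number limits the precision.

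The 9 miRNAs, the lists and the rule for the miRNAs named (the 9, their partner strands, the paralogous cluster, miRNAs of the same seed, 3 comparison clusters and the 5 most similar miRNAs) were chosen with earlier results of these data known. The limit for an error of at least 2.5 was chosen after the values were seen. Of the 1079 names, 867 matched a mature sequence of the RefSeq table. The genome build used for the arrays is not given in the sources used here. The functions were tested on simulated arrays. Alternatives were a detection rule of 3 times the error, other summaries, percentile shifts, quantile normalization and each isolation left out. Python 3.11.15, numpy 2.4.6, pandas 2.3.3 and matplotlib 3.10.9 were used.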

Additional observations from a re-analysis of the deposited data

How the results depend on the processing

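In each alternative run for it, 5 of the 9 miRNAs were detected in 1 or more isolations. No detected miRNA had a signal below 3 times its error, so that rule could not change it. None was detected in all 3 isolations, and leaving out an isolation in turn gave 0 to 5, the higher value being that without isolation 1. The difference between the clusters, 0.54 log2 units, was 0.74 with medians, 0.10 without miR-19b-3p and miR-92a-3p, 0.046 with undetected miRNAs at the lowest detected signal of their array, and 0.19 with these at the limit for an error of at least 2.5, a setting chosen after seeing the data. It was 0.55 from linear means, and 0.51 to 0.57 when single isolations were omitted. The median of isolation 3 minus isolation 2, 0.14 relative to all detected miRNAs, was -0.25 with no reference, 0.27 with the 90th percentile of all mouse miRNAs, 0.30 after quantile normalization and 0.082 with the 75th percentile of miRNAs detected in all arrays (the SD over the 5 miRNAs was 0.12). The mean log2 signal of each of the 5 moved by more than its SD under both percentile shifts and quantile normalization, which change the zero of the scale, and with undetected isolations put at the lowest detected signal, which adds isolation 1. The range within miR-17-92 could not be computed without miR-19b-3p and miR-92a-3p, which leaves 1 detected miRNA. No paired analysis was possible because there is no second group whose arrays could be paired by number with these, and comparisons between isolations were made within each miRNA. Levels below the limit of detection are not resolved.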

Other observations

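The following values were noticed after the data were seen and are given as descriptions. Of the 4 miRNAs with the seed AAAGUGC, those with U as the first base (miR-20a-5p and miR-106b-5p) were detected in isolations 2 and 3, and those with C (miR-17-5p and miR-93-5p, as well as miR-20b-5p of the paralogous cluster) were not. The other miRNAs of the 2 clusters did not follow this division, as miR-25-3p begins with C and was detected, and miR-18a-5p and miR-19a-3p begin with U and were not. Over the mouse miRNAs with a sequence in the reference, 19.3% of 305 beginning with U and 11.6% of 190 beginning with C were detected in isolation 2, beside 13.8% of those beginning with A and 17.6% of those beginning with G. In isolation 1 the shares were 6.89% for U, 5.79% for C, 6.07% for A and 8.80% for G, and in isolation 3 they were 17.05%, 11.1%, 13.0% and 14.4%, respectively. The signal of miR-20a-5p and of miR-106b-5p was close to the limit of detection, and the levels of the undetected miRNAs are unknown.

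The hairpin of miR-32 gives a miRNA of the miR-92a and miR-25 seed group, miR-32-5p, from its 5p strand. That strand was undetected in each isolation, whereas the feature of its partner strand, miR-32-3p, had a signal of 104.4 in isolation 1, 295.02 in isolation 2 and 173.0 in isolation 3, more than any of the 9 miRNAs of the clusters. It was the 1 detected of 6 other strands listed by name for relatives by seed, beside 16.7% of all 1079 mouse miRNAs. The 6 were miR-20b-3p, miR-18b-3p, miR-106a-3p, miR-363-5p, miR-92b-5p and miR-32-3p. This list holds a strand of miR-106a, whose main strand was not analysed, and none of miR-367, so it is not complete. The features of miR-32-5p and miR-32-3p have their own probes, so these signals do not rank the amounts of the strands. Binding of other RNA to the miR-32-3p probes was not tested.

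Of the 29 other mouse miRNAs with an isolation 2 signal in the range of the 5 detected cluster miRNAs, the 3 that were detected in isolation 1 were miR-149-5p, miR-1934-3p and miR-718, with isolation 1 signals of 9.62, 8.78 and 4.89.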
